A study of Drosophila melanogaster with 6 samples.

Results

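The immune-induced molecules (IM) and the Bomanins are small secreted peptides that Drosophila makes when the Toll pathway is switched on. Members were chosen by symbol from the gene table of whole testes that compares Zeus KO with control, taking each row named IM with a number or Bom with a capital letter, and 6 of its 11491 genes matched. These were IM1, IM2, IM3, IM4, IM14 and IM33, and no row carried a Bom symbol. In the current annotation IM1, IM2 and IM3 are the short Bomanins BomS1, BomS2 and BomS3, IM4 and IM14 are Daisho1 (Dso1) and Daisho2 (Dso2), and IM33 keeps its name.

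In the Toll pathway, recognition proteins bind microbial cell walls and start a cascade of serine proteases that cleaves the ligand Spätzle (spz). The receptor Toll (Tl) then signals through Myd88, tube (tub) and pelle (pll), the inhibitor cactus (cact) is degraded, and the transcription factors Dif and dorsal (dl) enter the nucleus and switch on peptide genes, mainly in the fat body. Flies that lack the main Bomanin cluster die of infections with fungi and Gram-positive bacteria, and the Daisho peptides defend against filamentous fungi. In adult flies these peptides circulate in the hemolymph.

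The samples are polyadenylated RNA of whole testes dissected from adult D. melanogaster males, with 3 libraries from Zeus KO and 3 from the line used as the injection control. Zeus (annotated as Rcd-1r) is a retroposed copy of Rcd-1, also called Caf40. The knockouts carried CRISPR-Cas9 deletions that shift the reading frame of Zeus, and both groups derive from the same injected host strain, which carries an integrase driven by nos, a y sc v sev background and an attP2 site. In the labels the control appears as WT. Neither the age of the males nor how many knockout lines stand behind the 3 Zeus KO libraries is given. No infection is described for either group, and the samples of both were kept in PBS before RNA extraction.

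The deposited value of a gene is its mean over the 3 libraries of a group, in reads after division by the size factor of the library (normalized reads). Because these means are printed to 15 digits, the whole read number of each library could be solved for 11178 genes, 97.3% of the table, and all 6 members were among them. The libraries are called A, B and C within each group by falling size factor, and a letter links no control library to a Zeus KO library. They held between 12533272 and 18846182 sequenced reads, and 7333614 to 10960507 reads fell in the solved genes. The Zeus transcript itself ranged from 318.7 to 380.4 normalized reads over the control libraries and from 268.8 to 328.3 over those of Zeus KO (log2 change -0.26, SE 0.132, adjusted p = 0.314 by limma). A small deletion leaves a transcript that can still be read, so this level is no check of the labels.

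Changes are given as Zeus KO minus control on the scale of log2(normalized reads + 1), from a limma fit over the 11164 solved genes with a mean of at least 1, with p-values adjusted over all of them by the Benjamini-Hochberg method. A gene was called where the adjusted p was under 0.05 and the fold change at least 1.5. In all, 453 genes (4.06%) were called, 241 higher (2.16%) and 212 lower (1.9%) in Zeus KO. Without control library C, 297 genes were called.

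All 3 Bomanins, IM1, IM2 and IM3, and both Daisho genes, IM4 and IM14, had lower values in every Zeus KO library than in any control library, and IM33 had higher values in every Zeus KO library. Of the 6 members, 1 was called, IM3, which was lower in Zeus KO. Over all genes tested, the groups did not overlap in 23.4%, lower in Zeus KO in 11.6% and higher in 11.8%, so such separation is common in these libraries. At an unadjusted p under 0.05, 5 of the 6 members passed (83.3%), beside 18.9% of all genes (9.71% lower, 9.16% higher). The median log2 change of the members was -0.80, beside 0.00 for all genes, and 5 of 6 were lower at any size, beside 49.5% of all genes. With 6 members, these shares are a description.

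**Figure D1:**
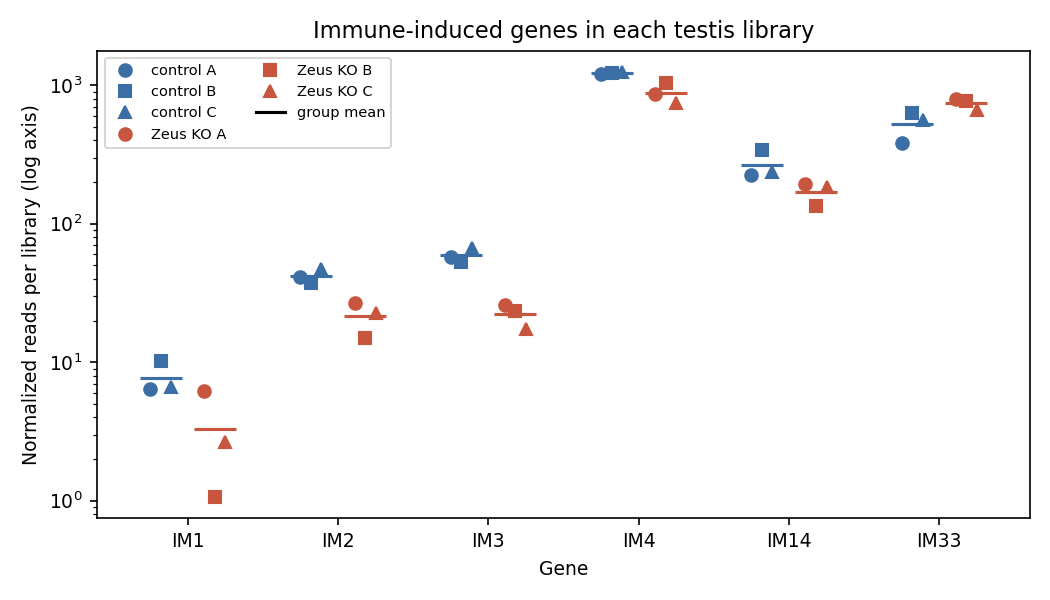
Normalized reads of the 6 IM genes in each of the 6 libraries, on a log axis. Points are libraries, control in blue and Zeus KO in red, and short lines are group means. The red points of IM1, IM2, IM3, IM4 and IM14 lie below the blue ones and those of IM33 above, by the smallest margin in IM1 (6.395 in the lowest control and 6.215 in the highest Zeus KO library).

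IM3 (BomS3, FBgn0040736) lies at chromosome 2R, bases 18387895 to 18388734 on the plus strand of dm6, with 2 exons and a reading frame of 39 codons. It is a short Bomanin, a secreted peptide that consists of little more than the motif the family shares. Its normalized reads were 57.55, 52.64 and 67.12 in control libraries A, B and C, and 25.75, 23.56 and 17.28 in Zeus KO libraries A, B and C. Every control library was at least 2.04 times the highest Zeus KO library, the widest separation among the members. The group means were 59.1 ± 7.37 in control and 22.2 ± 4.4 in Zeus KO (SD, n = 3 each). The log2 change was -1.39 (SE 0.25, 95% interval -1.93 to -0.84), and limma's adjusted p was 0.00645. The change rested on 146 solved reads in control and 64 in Zeus KO. It was called in 5 of the 6 fits that left out a library, and without control library C the adjusted p was 0.0539 at a log2 change of -1.29.

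IM2 (BomS2, FBgn0025583), at 2R bases 18386602 to 18387030 on the plus strand, encodes another short Bomanin, of 45 codons. Control libraries A, B and C held 41.56, 37.23 and 47.38 normalized reads of it, and Zeus KO libraries A, B and C held 26.64, 14.99 and 22.59. The lowest control library was 1.4 times the highest Zeus KO library. The means were 42.06 ± 5.09 and 21.41 ± 5.91 (SD, n = 3 each), a log2 change of -0.97 (SE 0.283, 95% interval -1.59 to -0.35). With an adjusted p of 0.0795 by limma, IM2 was not called, and leaving out a library gave adjusted p-values from 0.0507 to 0.291.

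IM1 (BomS1, FBgn0034329), at 2R bases 18383949 to 18384378 on the plus strand and also with 45 codons, had the fewest reads of the members. It had 6, 8 and 5 reads in control libraries A, B and C and 7, 1 and 2 reads in Zeus KO libraries A, B and C. After division by the size factors these became 6.395, 10.27 and 6.581 in control and 6.215, 1.071 and 2.658 in Zeus KO. The groups are thus separated by a gap of 2.88%, and the raw reads of the groups overlap. The log2 change was -1.18 (SE 0.611, 95% interval -2.52 to 0.16) with an adjusted p of 0.328 by limma. Without Zeus KO library B it was -0.74, with an adjusted p of 0.678. Scaled for depth, the ratio of Zeus KO to control reads was 0.464, with an exact (Clopper-Pearson) 95% interval of 0.193 to 1.05 that covers counting error only. A difference in IM1 was not detected with these few reads.

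The Daisho genes stand as neighbours on 2R in opposite orientation. IM4 (Dso1, FBgn0040653) covers bases 20868496 to 20869321 on the minus strand, and IM14 (Dso2, FBgn0067905) covers bases 20870392 to 20870678 on the plus strand, 1071 bases after the end of IM4. They encode peptides of 42 and 46 codons that flies secrete into the hemolymph under Toll control.

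IM4 held 1206, 1230 and 1245 normalized reads in control libraries A, B and C and 858.6, 1031 and 737.6 in Zeus KO libraries A, B and C. The control libraries were close together, and the Zeus KO libraries were spread and all lower. The means were 1227 ± 19.5 and 875.9 ± 148 (SD, n = 3 each). The log2 change was -0.50 (SE 0.122, 95% interval -0.77 to -0.23) with an adjusted p of 0.0382 by limma, and the fold change of 1.41 was under the limit of 1.5. Without that limit 563 genes passed (5.04%), 264 of them lower (2.36%), and of the members IM3 and IM4 did. The adjusted p of IM4 ran from 0.019 to 0.187 when a library was left out. Without Zeus KO library B it was called, at a log2 change of -0.62 and an adjusted p of 0.019. The adjusted p exceeded 0.05 without control library B (0.0796), control library C (0.177), Zeus KO library A (0.0525) or Zeus KO library C (0.187), and in a limma fit without the trend (0.121).

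IM14 held 223.8, 341.5 and 234.3 normalized reads in control libraries A, B and C and 192.7, 133.9 and 183.4 in Zeus KO libraries A, B and C. Control library B was the highest and Zeus KO library B the lowest, and the remaining libraries of the groups were nearer each other. The means were 266.5 ± 65.1 and 170.0 ± 31.6 (SD, n = 3 each), a log2 change of -0.64 (SE 0.193, 95% interval -1.06 to -0.21) with an adjusted p of 0.0912 by limma. Among the alternatives tried it was called only without control library A, with an adjusted p of 0.0478. The intervals of IM4 and IM14 overlap, and the difference between their changes was not tested.

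IM33 (FBgn0031561) was the one member outside 2R, at chromosome 2L bases 3696218 to 3696658 on the minus strand. It encodes a peptide of 82 codons of the Kunitz family of serine protease inhibitors, not a Bomanin or a Daisho. It held 383.7, 632.9 and 562.0 normalized reads in control libraries A, B and C and 794.7, 764.7 and 663.2 in Zeus KO libraries A, B and C. The lowest Zeus KO library was 4.77% above the highest control library, and control library A stood below the others. The means were 526.2 ± 128 and 740.9 ± 68.9 (SD, n = 3 each). The log2 change was 0.52 (SE 0.168, 95% interval 0.15 to 0.89) with an adjusted p of 0.115 by limma, so IM33 was not called. It was called, at 0.67 and an adjusted p of 0.0414, in the fit without control library B. Without control library A the log2 change was 0.31 and the adjusted p 0.157.

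Levels can be compared between the genes only per length, which the authors' values do not include. Divided by exon length, the control means were 1600 ± 25.4 normalized reads per kilobase for IM4, 1380 ± 337 for IM33 and 1200 ± 292 for IM14 (SD, n = 3 each). Neither IM4 and IM33 nor IM33 and IM14 differed beyond their spread. IM2 followed with 115 ± 13.9, IM3 with 76.9 ± 9.58 and IM1 with 21.5 ± 6.06 normalized reads per kilobase, each further from the next than the sum of their SDs. In Zeus KO the order began with IM33 at 1940 ± 181, then IM4 at 1140 ± 193 and IM14 at 762 ± 142, and ended with IM2 at 58.3 ± 16.1, IM3 at 28.9 ± 5.72 and IM1 at 9.18 ± 7.3, and here each neighbouring pair lay further apart than the sum of its SDs. The Bomanins were thus the scarce members in both groups. Exon length here merges all transcripts of a gene, and which transcript was present is not known. It was 769 bases for IM3, with 2 transcripts, and 367 for IM2, with 1. Before division IM3 held more normalized reads than IM2 in control (59.1 and 42.06), so their order rests on that length. The same holds in Zeus KO for IM4 (767 bases, 875.9 normalized reads) and IM33 (381 bases, 740.9). Bulk RNA cannot tell fewer cells of a type from less RNA per cell, which holds for each difference here.

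Over the 6 libraries, the log2 values of the 5 members other than IM33 had Pearson correlations of 0.48 to 0.92 with each other, and those of IM33 with the others ranged from -0.69 to -0.38. These describe 6 points that include the difference between the groups. Within a group the members did not keep 1 order. In Zeus KO library B, the log2 deviations from the group's mean were -0.87 for IM1, -0.45 for IM2 and -0.32 for IM14, and 0.25 for IM4.

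Of the 12 Bomanin genes in the annotation (10 on 2R and 2 on 3R), 7 were in the table, and 4 of these stood there under CG symbols. The other 5 were not analysed here. CG15067 is BomBc2, CG5791 is BomBc3, CG5778 is BomT3 and CG15068 is BomS6. In BomBc genes the shared motif occurs in a pair, and in BomT genes it carries a tail. None of the 4 was called, and 3 passed an unadjusted p of 0.05 by limma, beside 18.9% of all genes tested. All 4 estimates were below 0, with a median log2 change of -0.93.

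CG15067 held 63.95, 91.15 and 100 normalized reads in control libraries A, B and C and 55.94, 34.27 and 42.53 in Zeus KO (log2 change -0.93, SE 0.245, adjusted p = 0.053 by limma). CG15068 held 23.45, 47.5 and 76.33 in control and 15.09, 16.07 and 22.59 in Zeus KO (-1.27, SE 0.389, adjusted p = 0.0951). In both genes the groups did not overlap, although control library A lay near the Zeus KO libraries. CG5778 held 63.95, 60.34 and 72.39 in control and 40.84, 43.91 and 21.26 in Zeus KO (-0.93, SE 0.279, adjusted p = 0.0872), again without overlap. CG5791 held 10.66, 12.84 and 25.01 in control and 17.76, 9.64 and 5.316 in Zeus KO (-0.58, SE 0.485, adjusted p = 0.572), and its groups overlapped. Over all 7 Bomanins of the table, 1 was called lower, 6 had groups that did not overlap, and the median log2 change was -0.97. Of all genes tested, 1.9% were called lower, and in 11.6% the groups did not overlap with Zeus KO lower. The 6 include IM1, whose groups were separated by a gap of 2.88%.

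**Figure D2:**
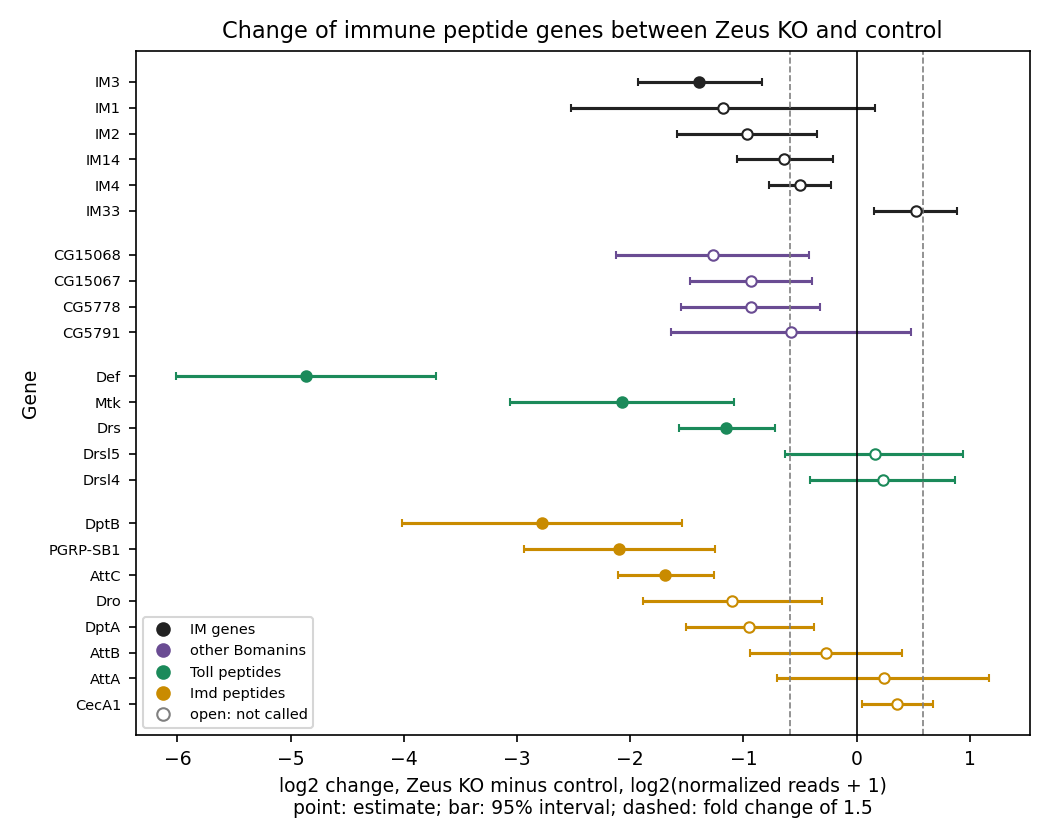
Log2 change of each gene, Zeus KO minus control, for the IM genes, the other Bomanins and the immune genes listed here under Toll or Imd. Points are limma estimates, bars 95% intervals, filled points called genes, and dashed lines a fold change of 1.5. IM3 at -1.39 is the only filled IM gene, and Def, with 1 read in all Zeus KO libraries, is the farthest to the left.

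On 2R, 5 of the 7 Bomanins lie within 6681 bases, in the order IM1, CG15067, IM2, IM3 and CG15068. All 5 estimates were between -1.39 and -0.93. Within 20 kb of this cluster lie 11 other genes of the table, all at higher coordinates than the cluster. Of these 1 was called, beside 4.06% of all genes tested: GstE8, a glutathione S-transferase (-0.81, adjusted p = 0.0332 by limma). At any size, 7 of the 11 were lower. Their log2 changes ran from -1.52 in Idgf5, a chitinase-like growth factor gene (adjusted p = 0.0717), to 0.42 in GstE10. Beside IM4 and IM14, 5 other genes of the table lay within 20 kb. The acyl-CoA synthetase family genes CG17999 (1.24, adjusted p = 0.0466) and CG9993 (1.92, adjusted p = 0.00242) were called higher by limma, and Ipk1, which starts just after IM14, had a log2 change of -0.19.

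IM33 lies in a group of small secreted protein genes on 2L. Its neighbours CG16713 (log2 change 0.46), CG3604 (0.31) and Acp24A4 (0.53) had estimates of the same sign as IM33, whereas those of CG16704 (-1.59) and CG10031 (-1.32) were of the opposite sign, and limma called none of these 5. Of the 17 other genes of the table within 20 kb, 3 were called, all lower in Zeus KO, beside 1.9% of all genes. The 3 were CG42464 (-0.93), CG42465 (-0.75) and CG43145 (-0.95). The sign of the change thus did not hold along the chromosome around IM33.

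**Figure D3:**
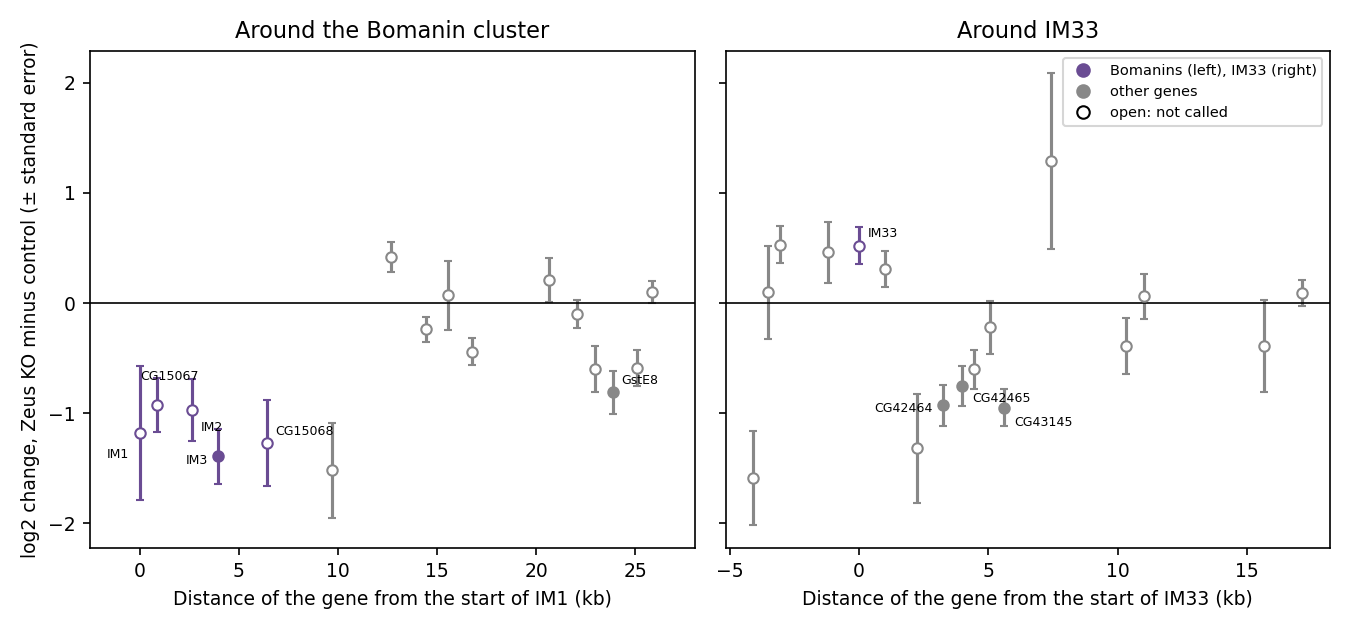
Log2 change (limma estimate ± SE, Zeus KO minus control) against distance in kb from the lower coordinate of IM1 (left) and IM33 (right). Purple points are the Bomanins and IM33, grey points other genes of the table, and filled points called genes. The 5 Bomanins of the cluster lie between -1.39 and -0.93, and IM33 at 0.52 stands among neighbours of both signs; Drgx, whose lower coordinate lies further off, is not drawn.

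The other antimicrobial peptides listed here under the Toll pathway gave 3 called genes of 5 tested, all lower in Zeus KO. The share called lower over all genes tested was 1.9%. Which pathway controls each listed gene was not tested, so the list is no specific readout of Toll. Defensin (Def), an antibacterial peptide, held 27.71, 44.94 and 34.22 normalized reads in control libraries A, B and C, and 1 read in all in Zeus KO (0.8879 normalized reads in library A and 0 in libraries B and C, adjusted p = 0.000157 by limma). Drosomycin (Drs), an antifungal peptide and the usual readout of Toll, held 173.7, 277.3 and 233 in control and 119.9, 96.4 and 87.71 in Zeus KO (log2 change -1.15, adjusted p = 0.00425). Metchnikowin (Mtk) was lower by a log2 change of -2.07 (adjusted p = 0.02), and the Drosomycin-like genes Drsl4 (0.23) and Drsl5 (0.16) were not called.

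Among the steps before the peptides, the receptor and the proteins that carry its signal were listed apart from recognition and the protease cascade. Of 9 genes for the receptor and its signalling, none was called and none passed an unadjusted p of 0.05 by limma, with log2 changes from -0.28 in tub to 0.30 in Dif and a median of -0.02. Of 16 genes for recognition, proteases and ligand, 1 was called, GNBP3, which binds fungal glucan. It held 90.59, 71.9 and 71.07 normalized reads in control and 34.63, 23.56 and 21.26 in Zeus KO (-1.54, adjusted p = 0.00302 by limma). The 16 had a median of -0.12. Of them 3 passed an unadjusted p of 0.05 by limma, a share similar to the 18.9% of all genes tested.

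Immune genes listed here under the Imd pathway, which answers Gram-negative bacteria, gave 3 called of 8, all lower: DptB (-2.78, adjusted p = 0.014), PGRP-SB1 (-2.10, adjusted p = 0.00726) and AttC (-1.69, adjusted p = 0.00025, all by limma). The median of the 8 was -1.02, and at any size 6 were lower and 2 higher. The 2 were CecA1 (0.36) and AttA (0.24), and neither was called. Among all genes tested, 1.9% were called lower. Of the Turandot stress peptides, TotA (-0.83) and TotM (-0.93) were in the table and not called. Both passed an unadjusted p of 0.05 by limma, as did 18.9% of all genes tested. Of the Baramicin genes, their relatives and Bbd, which were listed together, 2 were in the table. BaraC (CG30285) had a log2 change of 0.08 and the Bomanin partner gene Bbd (CG18067) of 0.14, and neither was called (adjusted p = 0.917 and 0.529 by limma).

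Some markers of other cells that a dissected testis can carry moved as well. For comparison, 1.9% of all genes tested were called lower and 2.16% higher. Of 10 fat body markers tested, 4 were called lower (apolpp -1.03, Fst -1.56, alpha-Est7 -0.86 and Lsp1beta -2.49) and 1 higher (Lsp2 1.09), with a median of -0.43. Their summed normalized reads ran from 5097 to 6686 over control libraries and from 3236 to 3918 over Zeus KO libraries, without overlap. Cyp4g1 of that list, also an oenocyte gene, could not be solved, and its deposited mean was 8623 in control and 15630 in Zeus KO, so that the list's deposited sum with it was 14642 in control and 19233 in Zeus KO. Of 11 hemocyte markers, 1 was called lower (Nplp2, -1.55), the median was 0.10, and the sums were 3187 to 3825 (control) and 2797 to 3155 (Zeus KO). The lower hemocyte sum rests largely on Nplp2, whose deposited mean was 861.7 in control and 293 in Zeus KO. At any size, 7 of the 11 hemocyte markers were higher in Zeus KO and 4 lower. Of 6 accessory gland and ejaculatory duct markers tested, Acp76A (-1.17) and Acp62F (-0.67) were called lower, the median was -0.44, and the sums were 26956 to 34000 (control) and 18167 to 27808 (Zeus KO). Of 11 germline and 8 cyst cell markers tested, limma called none (1 and 0 at an unadjusted p under 0.05), with a median of -0.02 in each list. The sums of the germline markers were 17680 to 20487 over control libraries and 17394 to 19298 over Zeus KO libraries. These sums leave out the genes that could not be solved, 6 of the germline list and 5 of the gland list, all with lower deposited means in Zeus KO. With them, the deposited sums were 169550 in control and 148666 in Zeus KO for the germline list, and 145417 and 97193 for the gland list. Each solved marker of these lists had reads in all 6 libraries. Of the 17 fat body symbols listed, which include older names, 11 were in the table, and of 14 hemocyte symbols 11. Fbp1, Yp1, Yp2 and eater were among those not analysed here. The part of fat body, hemocyte or gland RNA in the changes of the IM genes was not tested.

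**Figure D4:**
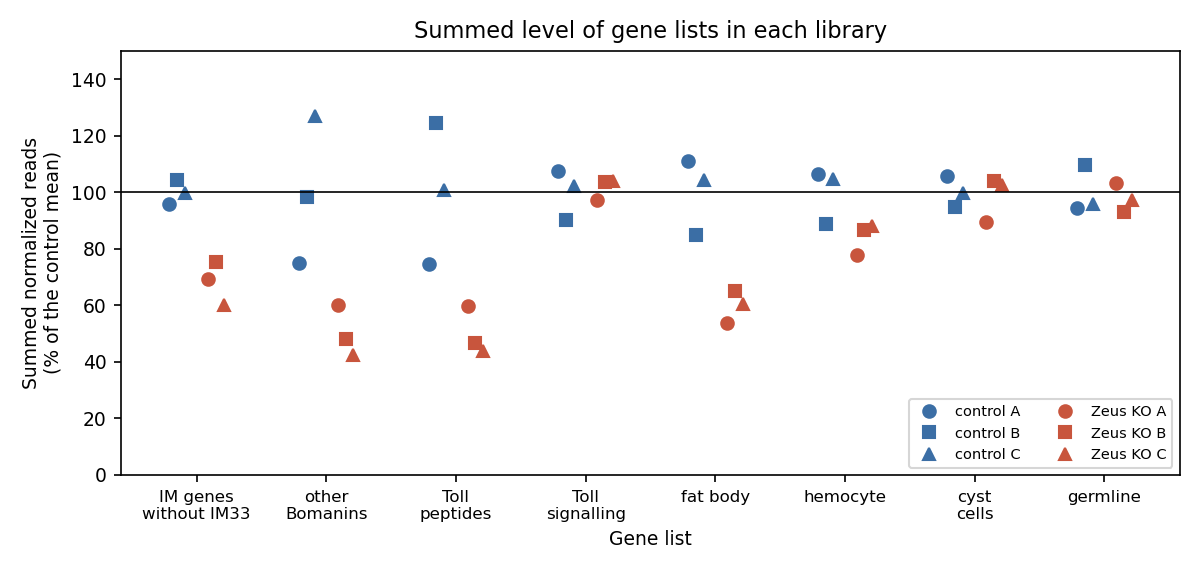
Summed normalized reads of the solved genes of each list in each library, as a percentage of the list's control mean. Points are libraries, control in blue and Zeus KO in red. The IM genes without IM33 (1536 to 1672 normalized reads in control, 963.5 to 1205 in Zeus KO), the other Bomanins (162 to 273.8, and 91.7 to 129.6), the Toll peptides (252.6 to 421.1, and 148.8 to 201.6), the fat body list without Cyp4g1 and the hemocyte list lie lower in each Zeus KO library than in any control library, and the Toll signalling, germline and cyst cell lists overlap. The lower hemocyte sum rests largely on Nplp2, and 7 of the 11 hemocyte markers were higher in Zeus KO.

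A mean profile was made from the 5 members with a mean of at least 10, their log2 values each scaled to their own mean and SD. IM1 was thus left out, and IM33 was included although its correlations with the others were negative (-0.69 to -0.38). The genes most like this profile over the 6 libraries were sought by the Pearson correlation of log2 values. The highest were CG15256 (r = 0.998), CG10029 (0.998), CG3528 (0.996), CG14997 (0.996) and CG44014 (0.993), of which CG3528 (log2 change -1.07) and CG44014 (-0.98) were called lower. With 6 points that share the difference between the groups, 585 of the 10863 genes compared (5.39%) had r above 0.9, so a high r is common here.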

How the data were processed

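The authors mapped 50-base reads to dm6 with STAR, counted them per gene with featureCounts and compared groups with DESeq2, edgeR and limma. Versions and the use of strand are not given in the sources used here, so how reads shared by similar or overlapping genes were assigned is not known here. The deposited signal is a group's mean of size-factor normalized reads over its 3 libraries. The deposited count of sequenced reads per library comes from FastQC. Columns with the authors' fold changes, errors, statistics, p-values and calls were not used.

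Read numbers were solved from the 15-digit means within 2 units of the last digit, a tolerance widened after the data were seen. Each gene with means up to 8000 in both groups had 1 solution, and 313 genes, with 36.2% of normalized reads, were not solved. limma 3.58.1 (R 4.3.3, trend) was fitted to log2(normalized reads + 1), 3 libraries against 3. The fit was also tried on simulated counts with the same dispersion for every gene, which does not show its error rate in these data. Single-gene exact permutation tests cannot go below p = 0.1 with 3 against 3. The labels name no batch. Positions, exon lengths and current symbols come from Ensembl release 115. Log2 changes carry the usual shrinkage of low genes by the added 1.

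Members and lists were chosen with earlier results of these data known. CG13749 and bbd replaced wrong entries of the Baramicin list after the files were read. Named from each list were the called genes, at most 4, plus the other Bomanins and the genes of the Baramicin list. Also named were the 5 genes most like the mean profile of the members. Other uncalled genes outside the Bomanin and Baramicin lists (tub, Dif, Drsl4, Drsl5, CecA1, AttA, the Turandot genes) and the neighbouring genes were named after their values were seen. Alternatives were other pseudocounts, filters and scalings, no trend, no fold limit, voom (added after seeing the data) and leaving out each library.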

Additional observations from a re-analysis of the deposited data

How the results depend on the processing

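All 6 members kept the sign of their log2 change under all 15 alternatives tried, except that IM1 gave no value with a mean of at least 10. The count of members called was 1, was 2 without the fold change limit, and ran from 0 to 2 when a library was left out (0 without control library C, and 2 without control library A, control library B or Zeus KO library B). The median log2 change of the members, -0.80, was -0.64 with a pseudocount of 5, which shrinks low genes most, and -0.64 with a mean of at least 10, which leaves out IM1. The count of genes called, 453, ran from 297 to 557 when a library was left out, with 297 without control library C. With voom on the solved reads, 431 genes were called, and IM3 with an adjusted p of 0.0103 among them. The number of genes called in the other Bomanin and Toll lists, 4, was 5 with a pseudocount of 5, 3 with a mean of at least 10, and 3 to 6 when a library was left out (6 without control library A, 5 without Zeus KO library A, and 3 without control library B, control library C or Zeus KO library B). No paired analysis was possible because the solved libraries carry no replicate number. Depth limits IM1, with 19 solved reads in control and 10 in Zeus KO.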

Other observations

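The spread of the control libraries of IM4 was below the value for counting error, a difference that was not tested. Their coefficient of variation was 1.59%, beside 3.14% for Poisson counting at these read numbers, whereas in Zeus KO it was 16.9% beside 3.47%. For the similarly abundant IM33 the order was the other way round, with 24.4% in control beside 4.84% and 9.31% in Zeus KO beside 3.77%. IM14 varied by 24.4% in control and 18.6% in Zeus KO, beside 6.77% and 7.91% for counting. With 3 libraries a group, these spreads are themselves poorly known and were not tested against each other. For IM2 and IM3 the spread was near that of counting in both groups (12.1% beside 17% and 27.6% beside 22.2% for IM2, and 12.5% beside 14.3% and 19.8% beside 21.7% for IM3).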
